A study of Mus musculus with 8 samples.

Results

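Very long genes were taken as the protein-coding autosomal genes of 300 kb or more in the GENCODE M21 annotation of GRCm38 (mm10), and the body of each as the sequence from 5 kb past its transcription start to its end. The rule itself uses gene length and no methylation value. The rule selected 541 of 20807 genes, and all 541 were measured. Bodies of 15017 genes held at least 20 CpGs and entered the tests, which left 14476 shorter bodies to compare with. The long bodies covered 306 Mb, 12.4% of autosomal sequence, and held 2079278 of the 18216084 autosomal CpGs read at least 5 times in every file (11.4%). Their median length was 451 kb, 55 were 1 Mb or longer, and 17 overlapped another long gene, so that those share reads.

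In gene bodies, DNA methylation is laid down by DNMT3B and DNMT3A, and DNMT3B is drawn to bodies of transcribed genes by the histone mark H3K36me3. DNMT1 copies the pattern at each cell division. Many of the longest mammalian genes encode adhesion molecules, receptors and channels of the nervous system and lie in late replicating, CpG-poor sequence. In cells with a long history of division such sequence can lose methylation over large partially methylated domains, first at CpGs that stand alone between A or T bases. Whether long gene bodies are lower in one of the lymphocyte types was the question of the comparison.

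Methylation was read by whole-genome bisulfite sequencing in spleen lymphocytes of C57BL/6J mice of 6 to 8 weeks, an inbred strain. The 8 samples formed 4 groups of 2: CD43- resting B cells of females, the same of males, naive CD4+ CD62L+ T cells of females and the same of males. No animal carried a treatment or an engineered allele. Cells were pooled over several animals, and the T cells were sorted further as CD44 low and CD25-. Each group had 1 file, and the labels do not tell if it merges both samples, which leaves no replicate inside a group and a B and T cell difference seen once in each sex. The level of a body is the share of methylated among all CpG reads, in percent, and a difference is given in percentage points as B minus T. Bisulfite reads 5-methylcytosine and 5-hydroxymethylcytosine alike.

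Depth was 14.6 to 17.7 reads per autosomal CpG in the 4 files. Promoters of lineage genes were used to check the cell labels. All 7 B cell promoters were lower in both B cell files (8.19% to 44.1%, against 35.9% to 93.6% in T cells), and all 8 T cell promoters were lower in both T cell files (1.87% to 30.7%, against 59.9% to 95.5%). Of 5 myeloid promoters 3 were lower in both B cell files and 1 in both T cell files. Spi1 and Lyz2 lay at 17.2% to 50.7% in B cell files and at 32.1% to 66.7% in the others, and Csf1r was at 88.3% to 93.0% in all 4 files. Cd14 was at 12.7% to 17.9% in all 4 files and lower in both T cell files. Itgam was at 66.1% to 76.3%, lower in T cells within each sex. Of 4 promoters of CD8 T cells and NK cells 2 were lower in both T cell files, with Cd8b1 at 40.6% and 38.5% there and at 90.0% and 89.7% in B cells, and Cd8a at 67.0% and 70.9% in T cells. The part of other cells in the results was not tested.

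The sequences that follow come from 1 kb windows inside long genes where B and T cells were furthest apart, 1 window per gene. Each window had at least 3 CpGs, was fitted over all windows, and was called at an adjusted p under 0.05 (Benjamini-Hochberg, quasi-binomial model) with a difference of at least 20 points. The windows shown are extremes and not typical. Over all windows called in long bodies, the median difference was -28.7 points in those lower in B cells and 29.0 points in those higher. In all sequences shown the letters are the plus strand of GRCm38, with every CpG in capitals. Each stretch holds 2 to 6 CpGs. In the Inpp4b stretch 3 of 4 and in the Plcl1 stretch 4 of 5 were measured, and the other CpGs in capitals there gave no value. Levels are those of the whole window. Where a pair of values is given for a cell type, the female file comes first. The first set was higher in B cells. The window of Inpp4b, a phosphatase of phosphoinositides, lies in an intron (chr8:81772001-81773000), 430 kb from the gene start and 612 bp from the nearest annotated transcript start. B cells had 100% and 97.7% there, T cells 2.78% and 0%, and 0 of 28 reads in the male T cell file allows up to 10.7%. In Ptprk, a receptor tyrosine phosphatase, an intronic window (chr10:28567001-28568000) was at 96.2% and 90.8% in B cells and at 0% and 0.667% in T cells (0 of 148 reads allows up to 2.03%). The window inside the Fgfr2 gene model is intronic and also lies within Fam53b (chr7:132773001-132774000). It was at 97.2% and 94.2% in B cells and at 6.60% and 6.81% in T cells.
Inpp4b, chr8:81772612-81772911: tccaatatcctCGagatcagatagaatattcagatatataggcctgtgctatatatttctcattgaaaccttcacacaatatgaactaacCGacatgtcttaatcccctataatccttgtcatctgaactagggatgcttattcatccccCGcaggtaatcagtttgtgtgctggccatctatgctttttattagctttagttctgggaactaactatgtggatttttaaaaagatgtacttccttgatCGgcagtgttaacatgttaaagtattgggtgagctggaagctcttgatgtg
Ptprk, chr10:28567268-28567567: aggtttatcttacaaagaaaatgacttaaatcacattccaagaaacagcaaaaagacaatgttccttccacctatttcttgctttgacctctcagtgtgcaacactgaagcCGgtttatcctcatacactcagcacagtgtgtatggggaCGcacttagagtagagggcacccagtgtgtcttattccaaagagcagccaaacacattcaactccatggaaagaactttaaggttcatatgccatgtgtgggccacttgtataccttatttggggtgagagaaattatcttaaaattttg
Fgfr2 model, chr7:132773396-132773695: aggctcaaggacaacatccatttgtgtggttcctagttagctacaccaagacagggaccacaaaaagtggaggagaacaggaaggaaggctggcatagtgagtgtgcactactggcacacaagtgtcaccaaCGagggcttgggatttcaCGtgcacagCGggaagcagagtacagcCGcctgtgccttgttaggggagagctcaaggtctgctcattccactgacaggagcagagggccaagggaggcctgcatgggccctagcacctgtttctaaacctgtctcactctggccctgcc

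The next 4 windows were lower in B cells. That in the Gm20388 model holds exonic sequence (chr8:120747001-120748000) and also lies in Irf8, a transcription factor of B cells and myeloid cells. Its levels were 6.34% and 5.92% in B cells, against 92.0% in each T cell file. An intronic window of Plcl1, a phospholipase C-like protein (chr1:55557001-55558000), was at 9.09% and 12.2% in B cells and 95.6% and 97.1% in T cells. The window of the Gm20696 model, which overlaps the transcription factor gene Foxp1 (chr6:99340001-99341000, intronic), was at 11.1% and 10.3% against 93.2% and 92.6%. That of the Gm45062 model, shared with Umad1 (chr6:8289001-8290000, intronic), was at 4.35% and 2.13% against 86.1% and 85.2%. Over the windows shown, with 28 to 212 CpG reads per file, no 95% Wilson interval of a lowly methylated value reached above 23.5% and none of a highly methylated value below 73.4%. The windows were chosen for their large differences, so intervals that stand far apart follow from the choice. These intervals cover counting error only, and reads of neighbouring CpGs can come from the same fragment.
Gm20388 model, Irf8, chr8:120747354-120747653: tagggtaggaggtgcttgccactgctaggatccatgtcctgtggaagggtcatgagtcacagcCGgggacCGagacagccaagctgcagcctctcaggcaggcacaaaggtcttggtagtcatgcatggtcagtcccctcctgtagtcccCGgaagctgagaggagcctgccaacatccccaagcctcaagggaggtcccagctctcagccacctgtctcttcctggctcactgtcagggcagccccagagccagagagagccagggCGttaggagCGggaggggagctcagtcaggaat
Plcl1, chr1:55557701-55558000: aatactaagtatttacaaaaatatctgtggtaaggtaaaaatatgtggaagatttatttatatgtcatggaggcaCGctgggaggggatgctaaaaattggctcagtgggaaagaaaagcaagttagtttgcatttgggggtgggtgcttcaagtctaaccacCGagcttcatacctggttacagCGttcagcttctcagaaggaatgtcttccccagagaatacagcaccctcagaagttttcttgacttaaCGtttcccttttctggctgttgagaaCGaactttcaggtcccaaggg
Gm20696 model, Foxp1, chr6:99340429-99340728: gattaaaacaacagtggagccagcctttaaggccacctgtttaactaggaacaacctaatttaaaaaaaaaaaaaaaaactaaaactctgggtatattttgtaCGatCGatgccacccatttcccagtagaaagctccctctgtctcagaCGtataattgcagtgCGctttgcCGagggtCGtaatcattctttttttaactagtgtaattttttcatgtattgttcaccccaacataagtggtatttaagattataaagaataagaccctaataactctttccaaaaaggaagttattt
Gm45062 model, Umad1, chr6:8289243-8289542: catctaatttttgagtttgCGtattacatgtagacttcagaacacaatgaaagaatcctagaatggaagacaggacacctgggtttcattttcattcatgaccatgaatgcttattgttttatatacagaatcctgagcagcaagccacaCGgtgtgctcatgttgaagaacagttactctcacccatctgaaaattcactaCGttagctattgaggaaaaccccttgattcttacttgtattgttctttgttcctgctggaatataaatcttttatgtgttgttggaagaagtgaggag

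Against such local switches, whole bodies differed little. The median level of the 541 bodies was 87.5% (females) and 87.2% (males) in B cells, and 87.1% (females) and 87.0% (males) in T cells. Most bodies lay close together, with the 10th and 90th percentiles at 83.2% and 91.4% of the mean over the files, and the lowest and highest bodies at 56.8% and 95.5%. Median levels fell with length class, from 90.7% in genes of 5 to 30 kb through 89.5% and 88.1% in genes of 30 to 100 and 100 to 300 kb to 87.2% in the long genes. The spread narrowed as well, from an SD of 15.7 points over the shortest class to 4.00 points over long bodies, each of which sums reads over a median of 3308 CpGs. Within the long genes, length and level were weakly related (Pearson r = -0.189, Spearman rho = -0.180 over 541 genes, which share the files and are not independent).

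**Figure D1:**
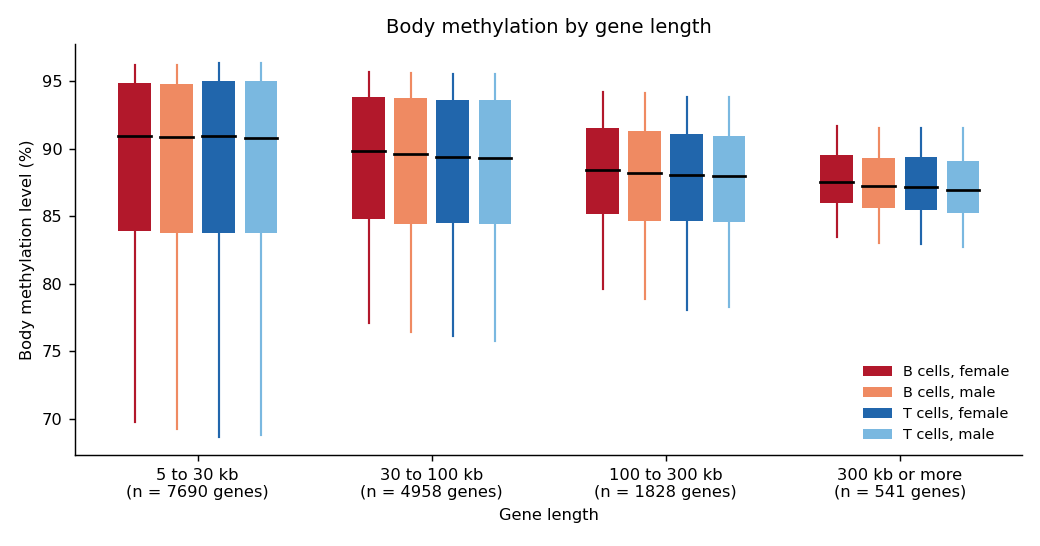
Body methylation level in percent (vertical axis) by gene length class (horizontal axis) in the 4 files. Boxes span the 25th to 75th percentiles over genes, black lines are medians and thin lines run from the 10th to the 90th percentile. The 541 genes of 300 kb or more have the narrowest boxes, with medians from 87.0% to 87.5%.

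As a class, long genes differed between the cell types by a fraction of a point. Over the 541 bodies the median B minus T came to 0.284 points (females) and 0.235 points (males). The difference between the sexes within a cell type was of similar size, with a median female minus male of 0.257 points between the B cell files and 0.200 points between the T cell files. B was above T in 378 bodies in females and 358 in males, and 405 bodies had the same sign in both. By length class the median B minus T was -0.109 points in genes of 5 to 30 kb, 0.221 in those of 30 to 100 kb, 0.361 in those of 100 to 300 kb and 0.262 in long genes, so the long genes lay below the class next to them. All shorter bodies together had a median 0.169 points below that of long ones. This gap became -0.0122 points when bodies were counted from 50 kb past the start, which also drops genes too short for it, among them those of 5 to 30 kb. Leaving out the female B cell file lowered the median over long bodies to 0.121 points, and leaving out the male B cell file raised it to 0.393. With a file left out the cell types are no longer compared within each sex, so the difference between the sexes enters these values. Counting every CpG alike instead of every read lowered the median of long bodies from 0.262 to 0.162 points. In absolute size the B minus T of long bodies was small, with a median of 0.379 points against 1.09 points in genes of 5 to 30 kb, and 458 of 541 lay under 1 point. Bodies of the shortest class held a median of 105 CpGs, against 3308 in long bodies, so counting error weighs more on their absolute differences. Its part in this contrast was not tested.

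Single bodies were tested with a quasi-binomial logistic model with terms for cell type and sex, fitted over all 15017 bodies. With a size of at least 5 points required, 0 long bodies were called lower in B cells, where 2.69% of all bodies were, and 2 were called higher, where 3.88% of all bodies were. At an unadjusted p under 0.05 stood 204 long bodies, 37.7% against 36.5% of all bodies, and limma on log2 ratios also gave 0 and 2. At 2 points or more, 7 were lower and 8 higher (8.73% and 10.5% of all bodies). With no size required, 31 were called lower and 100 higher, 5.73% and 18.5% of long bodies, against 11.4% and 14.7% of all bodies. The counts at any size depended on the model. Limma on log2 ratios called 4 lower and 3 higher at any size, and limma on means over CpGs called 10 and 7. Without the female B cell file 35 were called higher, and without the male B cell file 81. The residual rests on 1 degree of freedom, the difference between the B minus T of females and that of males.

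**Figure D2:**
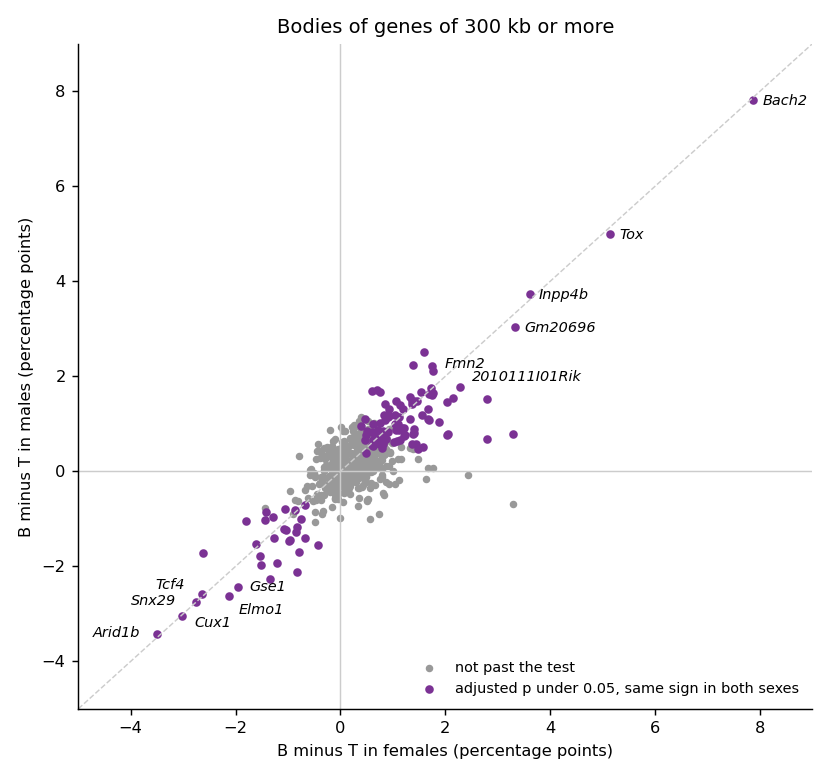
B minus T of each long gene body in females (horizontal axis) and males (vertical axis), in percentage points; each of the 541 points is 1 gene, the dashed line marks equal values, and purple points passed the test at any size. Bach2 and Tox stand apart at the upper right, and most bodies lie within 1 point of 0 in both sexes.

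The bodies most above T cells in B cells were led by a pair of transcription regulators of lymphocytes. Bach2 (chr4:32238804-32586108), a repressor that keeps B cells from becoming plasma cells and T cells from effector fates, was at 84.5% (females) and 84.4% (males) in B cells, and at 76.7% (females) and 76.6% (males) in T cells. Both B cell files were above both T cell files, by 7.88 points in females and 7.82 in males (adjusted p 2.66e-08). Tox (chr4:6686353-6991557), a nuclear factor needed for CD4 T cell development in the thymus, was at 93.1% and 93.0% in B cells and 88.0% in each T cell file, a mean difference of 5.08 points (adjusted p 5.49e-07). Inpp4b (chr8:81342556-82127914) had 91.4% and 91.3% in B cells and 87.8% and 87.5% in T cells, a difference of 3.68 points (adjusted p 1.81e-06).

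The remaining genes of the 6 most above T cells each passed the test at a smaller size. The Gm20696 model (chr6:99257484-99666797) was at 78.6% and 78.5% in B cells and at 75.3% and 75.5% in T cells, 3.19 points on average (adjusted p 1.41e-05). With every CpG weighted alike and limma as the test its difference was 1.77 points and the call was lost, and its median 10 kb bin differed by -0.0557 points. 2010111I01Rik (chr13:62964893-63326096) differed by 2.03 points (adjusted p 2.64e-04). Fmn2 (chr1:174501825-174822729), a formin that nucleates actin filaments, was at 91.9% and 91.7% in B cells and 90.1% and 89.6% in T cells, 1.94 points on average (adjusted p 4.24e-04). In all 6 genes every B cell file stood above every T cell file.

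In the other direction the largest difference was smaller, and the 6 bodies furthest below T cells all passed the test without reaching 5 points. Arid1b (chr17:4994332-5347656), a subunit of the BAF chromatin remodeling complex, was at 80.7% and 80.4% in B cells and at 84.2% and 83.8% in T cells, a B minus T of -3.46 points (adjusted p 4.09e-06). Cux1 (chr5:136248135-136567490), a homeobox transcription factor, was at 86.9% and 86.6% in B cells and 90.0% and 89.7% in T cells, or -3.04 points (adjusted p 1.14e-05). Snx29 (chr16:11322908-11755472), a sorting nexin, had 86.2% and 85.8% against 88.9% and 88.6%, or -2.75 points (adjusted p 1.28e-05). Both B cell files lay below both T cell files in these genes.

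Tcf4 (chr18:69343356-69689079), an E protein that acts in B cell and plasmacytoid dendritic cell development, differed by -2.61 points (87.3% and 87.8% in B cells, 90.0% and 90.4% in T cells, adjusted p 8.84e-06). Elmo1 (chr13:20090596-20608353), which with DOCK proteins activates Rac, differed by -2.37 points (88.9% and 88.4% against 91.0% in each T cell file, adjusted p 1.81e-05). Gse1 (chr8:120228456-120581390) differed by -2.19 points (71.7% and 70.9% against 73.6% and 73.4%, adjusted p 9.49e-05). By limma on log2 ratios Cux1, Snx29, Tcf4, Elmo1, Bach2, Tox and Inpp4b stayed under an adjusted p of 0.05, and the other 5 of these 12 genes did not.

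Where along a gene the difference lay varied between these bodies. Bodies were divided into 10 kb bins, and B minus T was computed in each. In Bach2, 21 of 34 bins were at least 5 points higher in B cells and none was as much lower. The widest was centred 50 kb from the start, at 86.1% and 84.4% in the B cell files and 54.9% and 52.8% in the T cell files. In Tox the 9 such bins of 30 included the 6 nearest the start, and the first, centred 10.2 kb from it, was at 96.0% and 97.2% against 67.3% and 68.9%. Inpp4b had 16 such bins of 78, and the widest, centred 430 kb from the start, was at 68.4% and 63.5% against 6.55% and 6.15%. Another 4 bins of Inpp4b were at least 5 points lower in B cells, the furthest by -19.0 points, centred at 10 kb.

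Arid1b also mixed both directions. In that gene 13 of 34 bins were at least 5 points lower in B cells and 3 at least 5 points higher, with the extremes 20 kb apart, at 16.9 and -22.2 points. Cux1 had 7 lower bins of 31, the widest at 74.0% and 73.5% in B cells and 91.3% and 90.4% in T cells. Snx29 had 8 of 42, the widest of -23.7 points, and its highest bin was at 5.22 points. Over all long bodies, 573 of 30574 bins (1.87%) were at least 5 points lower in B cells and 749 (2.45%) at least 5 points higher, and the median bin differed by 0.194 points.

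**Figure D3:**
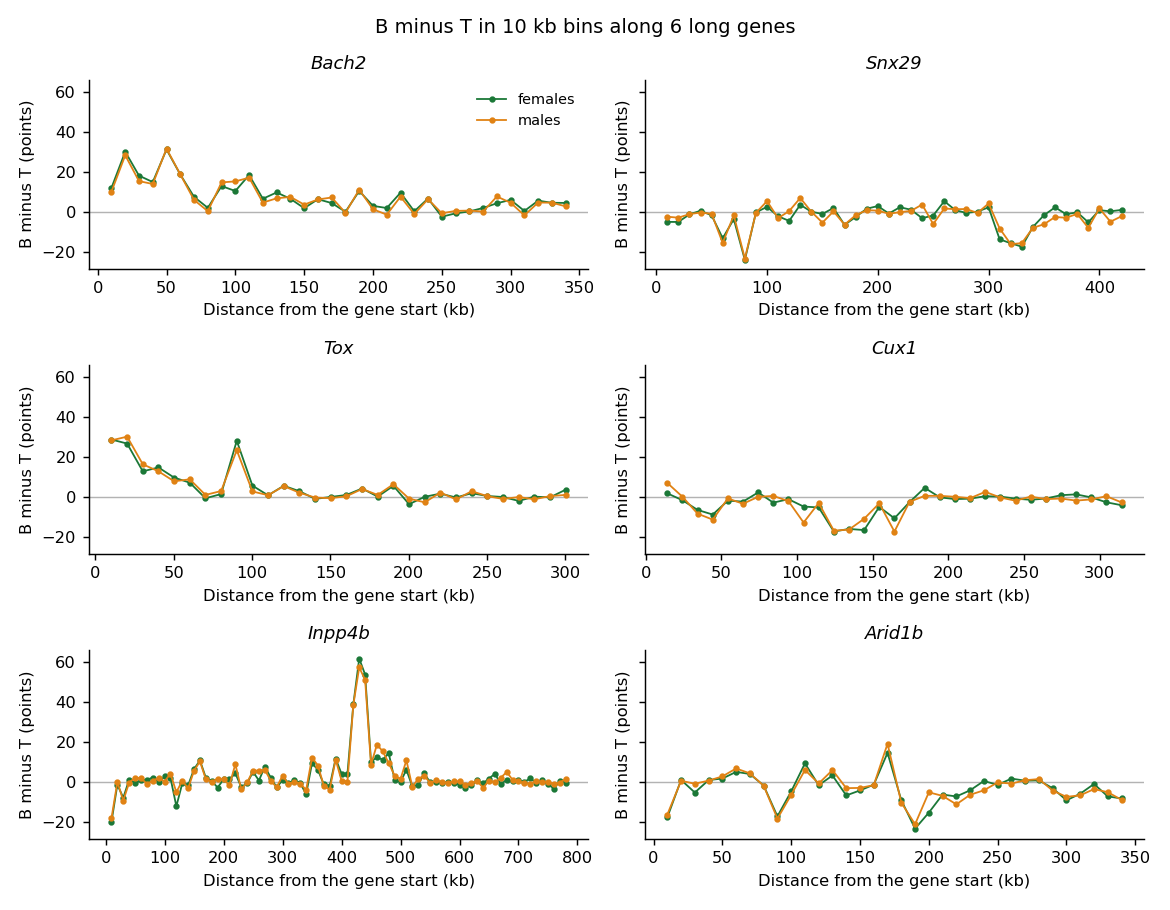
B minus T in percentage points (vertical axis) in 10 kb bins against the distance of the bin centre from the gene start in kb (horizontal axis), for the 3 bodies most above and the 3 most below T cells in B cells; green is females and orange males. The sexes follow each other closely, Bach2 is raised over most of its length, and Inpp4b has a narrow peak near 430 kb.

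Bodies were also recomputed without their switched windows. Those windows were chosen for their difference, so a smaller difference without them follows from the choice, and the values only describe what remained. Bach2 held 58 windows higher in B cells and 6 lower among 336 tested, and kept a difference of 2.78 points without them. Tox kept 1.81 points and Cux1 -1.13 points, while Inpp4b (0.623 points), the Gm20696 model (1.03 points) and Gse1 (-0.770 points) lost their calls. Among the genes named from lists, Ebf1 (-0.371 points), Msi2 (-0.744), Prkca (-0.616), Prkcb (-0.931), Lpp (-0.594), Itpr1 (0.268), Kcnq5 (0.551), Cadm1 (0.509) and Cdh23 (-0.742) lost theirs, and so did Cep128 (0.117), named for its level. The test was fitted again over all bodies, and some calls were lost with little or no change in the difference. Cntnap5b held no called window and stayed at 1.13 points, yet was no longer called. Kcnb2 (1.08 points before, 1.04 after), Ptprd (0.678 and 0.671) and the Gm42416 model (1.15 and 1.22) lost their calls as well, the last 2 named for length or level. Arid1b kept -2.20 points after the loss of 13.5% of its windows, and Tcf4 -0.959. Fmn2 held no called window among 262 and its median bin differed by 2.18 points. Without switched windows, 16 long bodies were called lower and 25 higher at any size, and none of either reached 5 points.

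The switched windows themselves made up a smaller share of windows in long bodies than in shorter ones. Of 250535 windows in long bodies, 1562 (0.623%) were lower in B cells and 1913 (0.764%) higher, against 0.934% and 1.19% of all windows. Shorter bodies gave 1.44% and 2.02% and sequence outside genes 0.577% and 0.640%. Median reads per window and file were 100 in long bodies, 140 in shorter ones and 88.5 outside genes, and the part of depth in these shares was not tested. These counts depend on the prior of the dispersion, which was taken from windows with at least 5 expected reads of each kind, and with a prior from all windows 607 were lower and 759 higher. The windows called lower in B cells had B cell means of 49.0% and 48.8% and T cell means of 81.8% and 81.9%, and those higher had means of 83.0% and 82.7% against 49.8% in each T cell file. The called windows fell in 366 genes, and 175 long genes had none. A longer body holds more windows that can be called, and no matching share of shorter genes is given. These counts of genes therefore do not set long genes apart from others.

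The highest shares of windows lower in B cells, among bodies with at least 50 windows, were in Arid1b (9.36% of 342), Gse1 (7.20% of 347), the Gm20696 model (6.84% of 395) and Tcf4 (6.21% of 338). The highest shares of windows higher in B cells were in Bach2 (17.3%), the Gm20696 model (10.6%), Tox (8.75%) and Inpp4b (7.73%). The Gm20696 model and Foxp1 overlap and share part of these windows. Foxp1, chosen after its values were seen, held 36 windows lower and 40 higher in B cells among 584, and its body was at 83.1% and 82.6% in B cells and 82.3% in each T cell file, a difference of 0.559 points that did not pass the test (adjusted p 0.100).

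Along the gene, levels changed little past the start. In the first 5 kb, next to the promoter, the median over genes was 29.7% and 28.0% in B cells and 26.4% and 27.1% in T cells. From 10 to 300 kb past the start the median in 10 kb bins stayed between 88.5% and 89.6% in female B cells and between 88.2% and 89.0% in male T cells. Median B minus T per bin ranged from 0.0386 to 0.369 points over that distance. The last 10 kb before the gene end stood slightly above the first 10 kb past it, at 90.2% and 88.8% in female B cells and at 89.7% and 88.3% in male T cells.

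**Figure D4:**
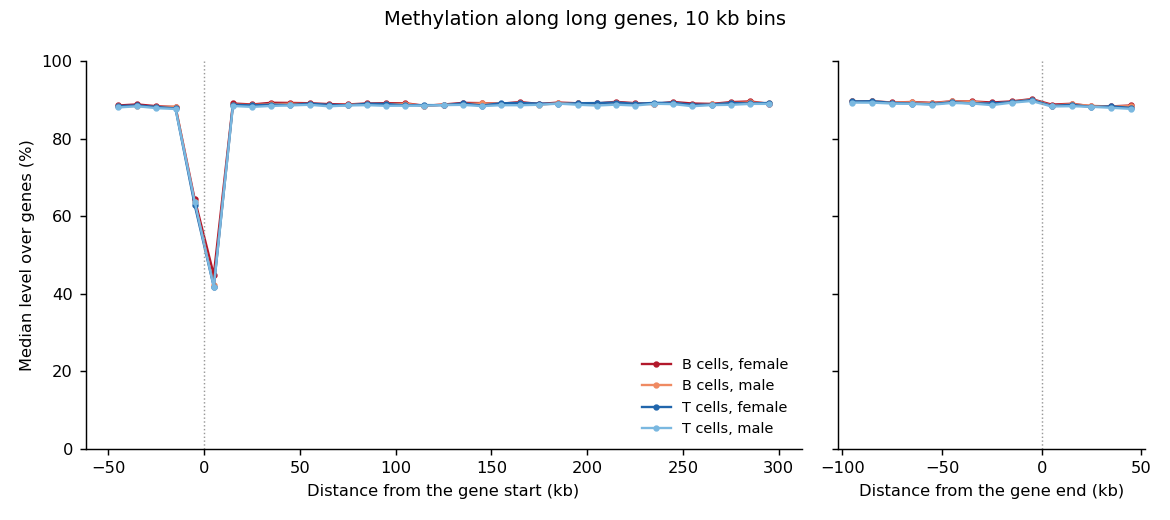
Median methylation level over long genes in percent (vertical axis, 0 to 100) in 10 kb bins by distance from the gene start (left) and end (right), in kb, for the 4 files. The level drops to between 41.7% and 44.9% in the first 10 kb and is flat at 88.2% to 89.6% from 10 to 300 kb in all 4 files.

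Bodies were then set beside their own surroundings, taken as sequence 5 to 55 kb beyond each end and outside protein-coding genes. The median body stood 0.335 and 0.242 points above its upstream flank in the B cell files and 0.165 and 0.140 points in the T cell files, over 489 genes with a measured flank, and 265 of 489 were above it in female B cells. The downstream flank gave 0.124 and 0.0994 points in the B cell files and 0.143 and 0.0489 in the T cell files over 471 genes. The median B minus T of upstream flanks was 0.153 points, against 0.254 points in bodies of the same genes.

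Sequence context set levels apart far more than cell type. All classes in this paragraph leave out CpGs within 1 kb of a transcript start, so their levels are not those of every such CpG in the bodies. CpGs of long bodies with no other CpG within 35 bp and an A or T on both sides were at 81.9% and 81.6% in B cells and 81.6% and 81.4% in T cells, and CpGs with a neighbour were at 89.1% and 88.8%, against 88.7% and 88.6%. In shorter bodies the isolated CpGs were higher, at 84.8% and 84.6% in B cells and 84.2% and 84.1% in T cells. Their B minus T in long bodies came to 0.261 (females) and 0.226 points (males), and in shorter bodies 0.619 and 0.494. Repeat-masked CpGs of long bodies stood at 89.4% in female B and 89.1% in male T cells, and unique ones at 87.5% and 87.0%. Exonic and intronic CpGs were close, at 88.0% and 87.7% in female B cells.

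CpGs within 1 kb of any transcript start inside these bodies were at 64.2% and 62.5% in B cells and at 62.2% and 62.3% in T cells. Averaged over CpGs instead of reads, the values were 63.6% and 63.4% in B cells and 63.5% and 63.3% in T cells. The female B cell file had the lowest depth, 14.6 reads per CpG.

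Gene groups were compared next, from lists of genes by function. Of 60 long genes of synaptic and axonal adhesion the median level was 85.9%, of 13 cadherins and catenins 86.4% and of 44 channels and neurotransmitter receptors 86.4%. All 3 medians were below that of all long bodies (87.2%), and 14 of the 60, 4 of the 13 and 12 of the 44 were above it. Long genes of lymphocytes of both types (15) had a median of 91.3%, and broadly expressed genes (30) 90.6%, with 14 of 15 and 26 of 30 above the median of all. The B cell list (5) had a median of 87.6% and the T cell list (8) 89.1%, with 3 of 5 and 6 of 8 above it. Bodies of the both-types and broad lists stood above their upstream flanks by a median of 2.85 and 1.85 points, against 0.254 points over all long bodies and 0.245 in the adhesion list. Downstream the medians were 2.07 and 1.14 points in the both-types and broad lists and -0.536 in the adhesion list. The lists biased toward a single lymphocyte type went both ways, with 4.69 points upstream and -1.69 downstream over 5 B cell genes, and with -0.590 points upstream (6 genes) and -1.58 downstream (7 genes) in T cell genes. CpG content also differed, with medians of 7.27 and 7.15 CpGs per kb in the both-types and broad lists, 5.80, 5.71 and 6.11 in the adhesion, cadherin and channel lists and 7.29 over all, and its part was not tested. Which of these genes are transcribed was not measured here.

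Genes of the lists biased toward 1 lymphocyte type had calls in both directions. At any size, 5.73% of all long bodies were called lower and 18.5% higher, and 11.4% and 14.7% of all bodies, and the counts of each list stand beside these shares. Among 5 long genes of the B cell list, 4 were called lower in B cells at any size and 1 higher. The higher one was Bach2, which also acts in T cells. Ebf1 (chr11:44617317-45008091), which specifies the B lineage, was at 86.4% and 85.7% in B cells and 87.6% in each T cell file, or -1.57 points (adjusted p 0.00133), and Prkcb (chr7:122288751-122634402), a kinase downstream of the B cell receptor, differed by -1.48 points (adjusted p 0.00433). The list median was -1.48 points, against 0.262 over all long bodies. Among 8 T cell genes 2 were called lower in B cells, Prkca at -1.15 and Tnik at -1.13 points, and 2 higher, Tox and Inpp4b, while 4 did not pass. Of 15 genes of both types 4 were lower, with Elmo1, Lpp (-1.06 points) and Ube2e2 (-0.873 points) among them, 1 was higher, the calcium release channel gene Itpr1 (1.06 points), and 10 did not pass. The lowest of the B cell list was Tcf4, at -2.61 points. Tcf4, Elmo1, Bach2, Tox and Inpp4b passed by limma on log2 ratios. Ebf1, Prkcb, Prkca, Tnik, Lpp, Ube2e2 and Itpr1 did not pass by limma on log2 ratios.

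Of 30 broadly expressed genes 4 were called lower at any size, 7 higher and 19 did not pass the test. Arid1b led them, followed by Msi2, an RNA-binding protein (-1.75 points), and Trappc9, a subunit of a vesicle tethering complex (-1.66 points). Of 60 adhesion genes none was called lower and 8 higher, with Sema6d (1.82 points, or 1.11 without the male T cell file), Cntnap5b (1.13 points) and Cadm1 (1.03 points) among them. Cadherins and catenins gave 2 lower (Pcdh7 at -1.23 and Cdh23 at -0.987 points), 1 higher (Pcdh9 at 1.05 points) and 10 not past the test, Cdh4 at 0.517 points among them. Channels and receptors gave none lower, 4 higher (Kcnb2 at 1.08 and Kcnq5 at 0.992 points among them) and 40 not past the test. The counts called higher in the adhesion and channel lists, 8 of 60 and 4 of 44, are smaller shares than the 18.5% of all long bodies and the 14.7% of all bodies. Grm5, at 0.923 points, did not pass. By limma on log2 ratios no gene of the broad, adhesion, cadherin or channel lists was called.

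Several of the small calls in these lists were lost when a file was left out. Such fits have fewer files and no longer compare the cell types within each sex. Cntnap5b (1.13 points with all files) and Ube2e2 (-0.873) lost their calls in some fits where the difference was no smaller. Kcnb2 (1.08) and others lost theirs where it was smaller. The loss of a call alone therefore cannot show that it rested on a particular file. Without the female B cell file Kcnb2 (0.582 points), Cntnap5b (1.11), Cadm1 (0.910), Pcdh9 (1.01), Pcdh7 (-1.03) and Ube2e2 (-0.893) were no longer called, and Cdh23 was called at -1.62 points. Without the male T cell file Kcnb2 (0.882 points), Cntnap5b (0.920), Cadm1 (0.931), Pcdh9 (0.889) and Ube2e2 (-0.770) were lost. Without the male B cell file Cdh23 (-0.357 points), Cntnap5b (1.14) and Ube2e2 (-0.852) were lost, and without the female T cell file Cdh23 (-0.917 points) and Ube2e2 (-0.975). With no term for sex the calls of Kcnb2, Cdh23, Ptprd and the Gm42416 and Gm37013 models were lost, and those of the other named genes were kept.

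Over all long bodies, with windows of overlapping genes counted in each, switched windows made up 0.640% lower and 0.777% higher, and over all windows 0.934% and 1.19%. They made up 0.130% lower and 0.154% higher of the windows in adhesion genes, 0.171% and 0.205% in cadherins and catenins and 0.278% and 0.294% in channels and receptors. The shares were 3.85% and 4.45% in B cell genes, 1.21% and 3.37% in T cell genes and 2.31% and 2.37% in genes of both types, while broadly expressed genes had 180 lower and 226 higher of 15026 windows, slightly above the shares over all windows. Windows were pooled over the genes of a list, and a few genes held many of them. Bach2 held 58 of the 82 windows called higher in B cell genes, and Inpp4b and Tox held 43 and 23 of the 131 in T cell genes.

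**Figure D5:**
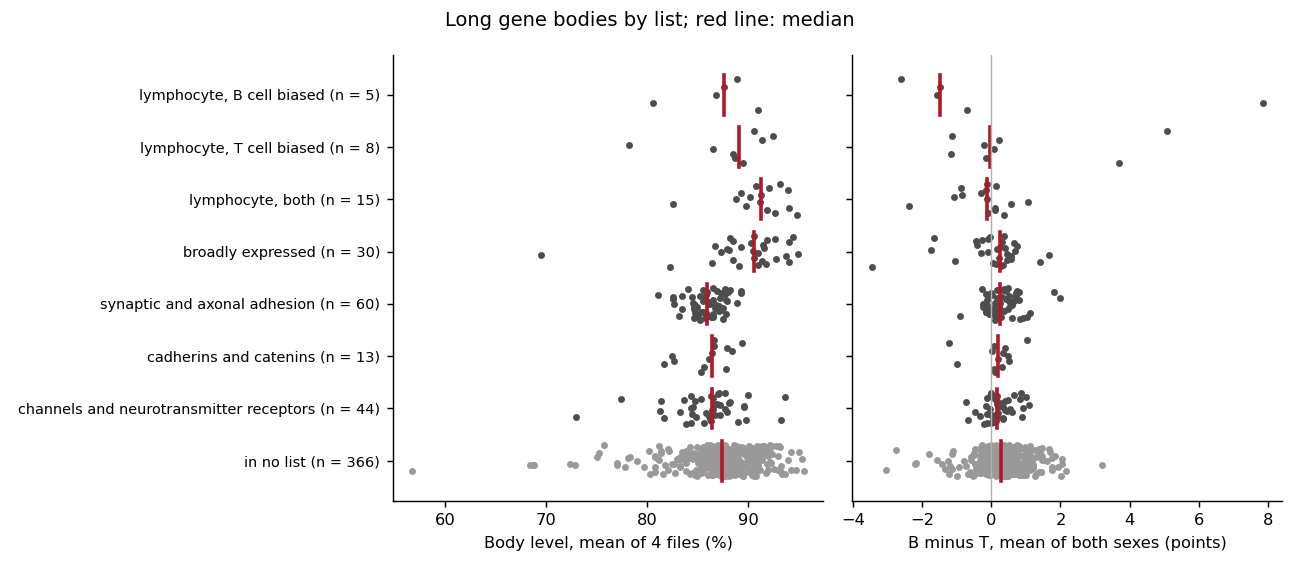
Long gene bodies by list (rows): level as the mean of the 4 files in percent (left) and B minus T as the mean of both sexes in percentage points (right). Each point is 1 gene and the red line is the median of the list. Medians of the lymphocyte and broadly expressed lists lie to the right of those of the neural lists in level, while single genes of the lists overlap. Bach2, Tox and Inpp4b are the 3 points above 3 points in the right panel among listed genes.

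The lowest bodies were few and of different makes. Cmss1 (chr16:57302000-57606864) was at 58.9% and 56.8% in B cells and 56.1% and 55.3% in T cells, the lowest of all 541. It was called 2.17 points higher in B cells at any size, and this call was lost without CpGs of over 100 reads (0.816 points) and without the female B cell file (1.15 points). Averaged over CpGs its level was 85.6%, and without those deep CpGs it was 86.2%. Only 95 CpGs of long bodies were that deep, and 4 bodies moved by more than 2 points without them. Gphn, which encodes the receptor scaffold gephyrin, was another, at 69.5% with them and 94.9% without, and its call at 1.68 points was lost (0.164 points), as it was without the female B cell file (1.48 points) or the male T cell file (1.55 points). The other 3 of the lowest 4 are gene models that overlap each other on chromosome 18 and cover the same stretch (Gm37388, Gm37013 and Gm42416, at 68.4%, 68.7% and 68.8%), so they count as 1 observation. They were called 1.15 to 1.22 points higher in B cells at any size. Without CpGs within 1 kb of a transcript start their differences were 0.556 to 0.564 points and the calls were lost. The calls were also lost without the female B cell file (1.06 to 1.09 points) and without the male T cell file (0.517 to 0.625 points). Those of Gm42416 and Gm37013 were also lost without the male B cell file (1.23 and 1.31 points).

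The highest bodies were nearly full. Cep128 (chr12:90998492-91384409), a centrosome protein, was at 96.0% and 95.7% in B cells and 95.2% and 95.0% in T cells. Nbas (chr12:13269133-13583811), a vesicle tethering factor, was at 95.2% and 95.3% in B cells and 95.3% in each T cell file. Rsrc1 and Gtdc1 had mean levels of 95.0% and 94.9%. The 4 longest genes all lay below the median level. Ptprd (2271 kb), a receptor phosphatase of synapses, was at 85.5% and 85.6% in B cells and 85.1% and 84.7% in T cells, and Cntnap2 (2245 kb), an axonal neurexin-like protein, at 86.7% and 86.5% against 86.6% and 86.3%. The models Gm20388 (4435 kb) and Fgfr2 (2961 kb) span other genes, and had mean levels of 72.9% and 77.8%. Neither they nor Cntnap2 passed the test, and Ptprd, called at 0.678 points (adjusted p 0.0286), lost its call with any 1 of the 4 files left out (0.470 to 0.885 points). Cep128, called at 0.771 points, lost its call without the female B cell file (0.619 points) or the male T cell file (0.671 points).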

How the data were processed

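Whole-genome bisulfite libraries of 8 samples in 4 groups of 2 gave 1 deposited file per group. Per the submitters' processing notes, Trim Galore, FastQC, Bismark 0.13.1 and mm10 were used. For each CpG the authors deposited the methylation level as a fraction and its coverage as a read count, with strands merged and at least 5 reads. Methylated reads were recovered as fraction times coverage, rounded. Totals were 278275973 to 339923001 autosomal CpG reads per file, and the 95% Wilson half-width of a body level had a median of at most 0.295 points. CpGs with 5 or more reads in all 4 files were summed per body and per 1 kb window. Reads were fitted by quasi-binomial logistic regression on cell type plus sex, dispersions were moderated by the squeezeVar function (limma 3.58.1, R 4.3.3), with a prior from all bodies, or for windows from those with at least 5 expected reads of each kind, and F tests were two-sided with Benjamini-Hochberg adjustment. A body was called at an adjusted p under 0.05, the same sign in both sexes and at least 5 points. Each feature had 1 residual degree of freedom, the difference between the sexes, and moderation moved its dispersion toward the prior. In Bach2 it went from 0.0922 to 2.87 and in Prkcb from 21.4 to 4.92. The p-values thus rest on the spread between the sexes over many features as well as in the feature itself, and not on replicates. Tests were run on simulated data, where 49 of 50 long bodies changed by 2 points were called at any size, and 1 of 441 unchanged ones. Of shorter bodies changed by 2 points 23 of 50 were called, so that shares called are not of equal sensitivity. The simulated reads used the dispersions of the model itself and left most bodies unchanged. These rates therefore cannot show how reliable the calls in the real files are. The members and lists were chosen with earlier results of these data known. Named genes were the 6 bodies furthest apart in each direction in both sexes, the 4 lowest, highest and longest, the 4 with the highest share of switched windows in each direction, up to 4 examples per list, and up to 4 windows in each direction, 1 per gene. Some items chosen by this rule are not reported here. Alternatives covered coverage, deep CpGs, body start, promoters, switched windows, length, file, test, prior, sex term, size and centring.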

Additional observations from a re-analysis of the deposited data

Results flagged for a closer look

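In 3 of the genes named for their length or level, B minus T had opposite signs in the sexes. It was 0.557 points in females and -1.01 in males in the Fgfr2 model, 0.503 and -0.612 in the Gm20388 model, and -0.00903 and 0.0146 in Nbas. The difference between the sexes was not tested, since each sex gave 1 value per cell type, and none of the 3 bodies passed the test of cell type.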

How the results depend on the processing

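Of 0 long bodies called lower in B cells and 2 called higher, no size needed gave 31 and 100 and a size of 2 points 7 and 8. The higher count was 1 for bodies from 10 kb or 50 kb past the start, 1 when centred on the median of all bodies, 0 without switched windows, 0 for genes of 500 kb or more and 0 at 10 points, and 2 with each file left out. Alternatives for the counts at any size were added after seeing the data, and gave 4 lower and 3 higher by limma on log2 ratios, 10 and 7 by limma on CpG means, which changes the test as well as the weighting, and 16 and 25 without switched windows. Leaving out each file gave 24 to 30 lower and 35 to 81 higher. The median B minus T of 0.262 points was 0.162 from CpG means, 0.222 from 50 kb past the start, 0.211 without transcript starts, 0.189 without switched windows, 0.159 when centred and 0.121 to 0.393 with each file left out. The gap to shorter bodies of 0.169 points was -0.0122 from 50 kb past the start, where the shortest genes also drop out, and 0.0874 to 0.256 with each file left out. Windows lower and higher numbered 3361 and 3854 at 10 points, 701 and 881 at 30 points, 595 and 739 at 2 kb, and 607 and 759 with the prior from all windows. Of 37 named genes called at any size, 6 stayed called under every alternative run on them, and none changed sign. The cause of these changes was not tested. No pairing by replicate was possible because each group has 1 file, so that no replicate numbers are shared between measurements. Sex is a term of the model, so that B and T cell files were compared within each sex, except with a file left out or with no term for sex.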
